A study of Mus musculus with 2 samples.

Results

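Many mammalian genes are arranged head to head, so that a minus-strand gene and a plus-strand gene start close together and are transcribed away from each other from one shared stretch of DNA. Such divergent promoters often lie in CpG islands, usually lack a TATA box and frequently serve housekeeping genes of RNA, chromatin, mitochondrial and genome maintenance pathways. Myb is a DNA-binding transcription factor of blood stem and progenitor cells that recognizes a short motif with an AAC core and recruits the coactivators CBP and p300. The peaks described here are the sites of Myb enrichment that fell at such promoter pairs.

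The members were 524 of the 25793 peaks in the deposited Myb list. A pair was defined from GENCODE vM21 as 2 protein-coding genes on opposite strands, transcribed away from each other, with 5′ ends 1 to 1000 bp apart. A peak was a member if its summit, the base of highest enrichment, lay between the 5′ ends or within 500 bp outside them. The annotation held 754 nuclear pairs, made of 1487 of 21938 protein-coding genes, and 21 genes belonged to more than 1 pair. In 18 members the summit lay in the windows of more than 1 pair, and each was assigned to the pair with the closer 5′ ends.

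The study examined p300 in Tet2-deficient blood progenitors, and Myb binding in WT cells was its source of Myb target genes. Lineage-negative (Lin-) bone marrow cells, the fraction left after mature blood cells are depleted, came from mice of genotype WT. In the study's methods WT stands for Ep300 fl/fl mice without Cre on a C57BL/6 background, which were given poly(I:C) as young adults like the mutants, but the labels of these libraries give no age, treatment or allele beyond WT. One sample was precipitated with an antibody against Myb (WT_Myb) and the other with normal rabbit IgG (WT_IgG), each from Lin- cells of more than 80% purity. Each precipitation took 1 μg of chromatin sheared by 14 sonication cycles and 1.5 μg of antibody, Tn5 transposase added adapters on the beads, and 12 PCR cycles followed. There was 1 library per antibody and no replicate, so no test between samples was possible, and a peak list holds no expression values with which the cell type could be checked against its markers. Intervals in parentheses are 95% intervals, exact (Clopper-Pearson) for shares, exact Poisson for reads and from order statistics for medians. They cover counting error only.

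The stretches between the 2 starts of some pairs are printed here because they hold the summits of strong peaks and show how unlike these shared promoters were. Each is the GRCm38 plus strand strictly between the 5′ ends, where no annotated exon lies, read toward the plus-strand gene, and capitals mark a Myb motif, taken as the words CAACGG and CAACTG and their forms with T first, which are TAACGG and then also TAACTG, on either strand. The first pair had the highest fold enrichment of all members, and both of its Myb motifs lay within 50 bp of the summit. The stretch lay at chr4:116708407-116708508.
Mmachc/Ccdc163: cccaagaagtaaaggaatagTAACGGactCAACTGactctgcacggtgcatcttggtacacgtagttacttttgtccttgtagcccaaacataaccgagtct
A stretch with 2 Myb motifs also carried the strong peak of Cenpp and Nol8, at chr13:49652786-49653077.
Cenpp/Nol8: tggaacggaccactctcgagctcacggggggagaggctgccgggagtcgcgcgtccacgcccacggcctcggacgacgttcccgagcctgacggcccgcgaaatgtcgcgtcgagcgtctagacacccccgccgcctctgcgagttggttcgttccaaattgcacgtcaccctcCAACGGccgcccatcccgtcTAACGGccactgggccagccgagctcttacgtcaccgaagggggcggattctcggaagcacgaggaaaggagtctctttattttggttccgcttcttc
The Tecr and Dnajb1 stretch at chr8:83607972-83608192 held 1 Myb motif, on the minus strand at base 159, near the summit at base 180.
Tecr/Dnajb1: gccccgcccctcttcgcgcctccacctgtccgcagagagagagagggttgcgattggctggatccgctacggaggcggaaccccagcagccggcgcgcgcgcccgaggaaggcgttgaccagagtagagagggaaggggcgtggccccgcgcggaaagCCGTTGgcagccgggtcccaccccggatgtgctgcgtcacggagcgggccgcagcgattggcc
The Uqcrq and Gdf9 stretch at chr11:53430832-53431022 held 1 Myb motif, also on the minus strand, at base 90, with the summit at base 60.
Uqcrq/Gdf9: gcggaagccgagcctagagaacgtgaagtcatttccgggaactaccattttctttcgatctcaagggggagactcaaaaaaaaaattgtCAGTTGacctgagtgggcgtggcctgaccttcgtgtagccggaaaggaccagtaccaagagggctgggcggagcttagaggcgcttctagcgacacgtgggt
Histone pairs are shown because their peaks were among the strongest members although no Myb motif lay within 50 bp of the summit. The stretch of Hist1h2bf and Hist1h2ad, at chr13:23574197-23574380, had a Myb motif at base 28 and its summit at base 147.
Hist1h2bf/Hist1h2ad: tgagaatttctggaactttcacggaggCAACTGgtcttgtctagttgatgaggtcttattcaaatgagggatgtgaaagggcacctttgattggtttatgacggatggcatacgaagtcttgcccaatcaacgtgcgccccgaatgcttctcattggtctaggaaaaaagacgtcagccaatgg
In the stretch of Hist1h2an and Hist1h2bp, at chr13:21787219-21787460, the single Myb motif began at base 24 and the summit lay at base 124.
Hist1h2an/Hist1h2bp: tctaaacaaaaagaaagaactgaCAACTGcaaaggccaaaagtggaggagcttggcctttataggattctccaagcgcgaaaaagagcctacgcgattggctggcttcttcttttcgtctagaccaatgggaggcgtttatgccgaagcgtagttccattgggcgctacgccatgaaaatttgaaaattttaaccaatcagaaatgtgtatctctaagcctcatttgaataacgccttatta
The stretch of Hist1h2ak and Hist1h2bn, at chr13:21753828-21754122, held no Myb motif, and the summit lay at base 188.
Hist1h2ak/Hist1h2bn: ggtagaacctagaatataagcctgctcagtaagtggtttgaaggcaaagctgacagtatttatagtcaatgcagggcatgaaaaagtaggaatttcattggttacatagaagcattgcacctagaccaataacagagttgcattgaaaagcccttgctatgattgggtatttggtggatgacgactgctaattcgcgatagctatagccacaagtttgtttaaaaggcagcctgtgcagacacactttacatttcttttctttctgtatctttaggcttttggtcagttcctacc
The last example, Pcid2 and Cul4a at chr8:13105460-13105620, had a GC content of 72.7% and no Myb motif.
Pcid2/Cul4a: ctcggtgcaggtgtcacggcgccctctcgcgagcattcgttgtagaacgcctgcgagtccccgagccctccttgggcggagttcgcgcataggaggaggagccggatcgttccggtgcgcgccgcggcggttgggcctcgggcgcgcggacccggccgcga

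These 8 stretches differed in base composition and in motifs. Their GC content ran from 40.3% at Hist1h2ak/Hist1h2bn to 72.7% at Pcid2/Cul4a. The CCAAT box bound by NFY, searched as CCAATNA or CCAATNG on either strand, occurred 4 times between Hist1h2bf and Hist1h2ad, 4 times between Hist1h2an and Hist1h2bp and 3 times between Hist1h2ak and Hist1h2bn. The summit lay at base 14 of the Mmachc/Ccdc163 stretch, next to the start of Mmachc, which encodes a protein of vitamin B12 processing.

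Most pairs held a Myb summit. Of the 754 pairs, 503 had at least 1 summit in their window, which is 66.7% (63.2% to 70.1%), and 251 had none. The window of a pair is wider than that of a single gene, so genes were also compared with a window of 500 bp on each side of the 5′ end. By this measure 919 of 1487 genes in pairs had a summit, or 61.8% (59.3% to 64.3%), against 24.1% (23.5% to 24.7%) of the 20451 other protein-coding genes and 26.6% of all protein-coding genes. In 684 of the 754 pairs the 5′ ends are at most 500 bp apart, so the window of each gene also holds its partner's start. A summit at either start can then count for both genes, and both genes of a pair often share 1 summit. The comparison therefore does not give a share per start, and the genes in pairs are not independent counts.

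The sequence around the 5′ end moved with this difference. A 5′ end was called CpG-rich where the stretch within 250 bp of it had a GC content of at least 55% and at least 0.6 of the CpG dinucleotides that its base composition would give. This held for 76.7% of the genes in pairs and 41.9% of the others. Among CpG-rich genes, a summit lay within 500 bp of 65.0% (62.2% to 67.8%) of those in pairs and 43.9% (42.8% to 44.9%) of the others. Among the remaining genes, the shares were 51.3% (45.9% to 56.7%) and 9.76% (9.23% to 10.3%). The intervals of genes in pairs and other genes did not overlap in either class. The windows of genes in pairs mostly also hold the partner's start, and this was not corrected for. Whether the genes were transcribed in these cells was not measured by this series, and its part in the difference was not tested.

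**Figure D1:**
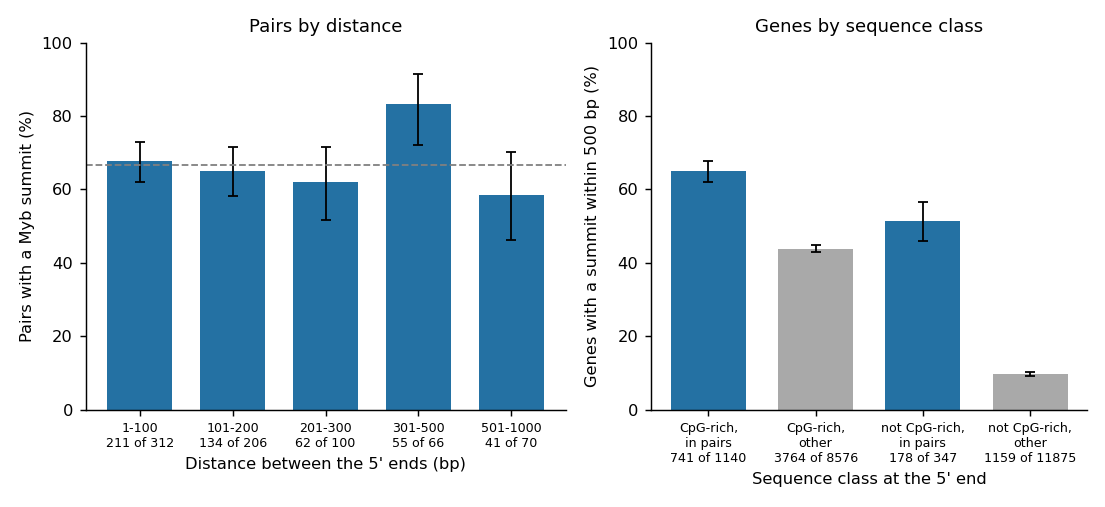
Share of divergent pairs with a Myb summit by the distance between their 5′ ends (left, dashed line at the share of all pairs, 66.7%) and share of protein-coding genes with a summit within 500 bp by sequence class and pair membership (right). Bars are shares in percent with exact 95% binomial intervals, and counts stand under the bars. In both sequence classes genes in pairs (blue) stood above other genes (gray), at 65.0% against 43.9% and 51.3% against 9.76%. The window of a gene in a pair mostly also held its partner's 5′ end.

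The share of pairs with a summit was alike in most classes of distance between the starts. The share was 67.6% (62.1% to 72.8%) for 5′ ends up to 100 bp apart, 65.0% for over 100 to 200 bp, 62.0% for over 200 to 300 bp and 58.6% (46.2% to 70.2%) for over 500 to 1000 bp. Pairs over 300 to 500 bp apart stood higher, with 55 of 66 holding a summit, or 83.3% (72.1% to 91.4%). The median distance was 129 bp for pairs with a summit and 130 bp for pairs without. GC content did not separate them either, with a median of 62.5% in both groups. The CpG ratio was higher at pairs with a summit, with a median of 0.856 (0.843 to 0.871) against 0.764 (0.734 to 0.785). Pairs on the X chromosome held a summit in 8 of 20 cases, or 40% (19.1% to 63.9%), against 67.4% (63.9% to 70.8%) of the autosomal pairs. The libraries' sex is not given in the labels.

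The pairs without a summit varied widely in their distance to the nearest peak, from 535 to 1009092 bp. The rule itself removes nearer summits, and no distance for other positions of the genome was computed for comparison. The nearest summit lay a median of 18740 bp from the middle of such a pair (13096 to 23934 bp). It was within 3 kb in 63 of the 251, or 25.1%, and more than 100 kb away in 37, or 14.7% (10.6% to 19.7%). At the edge of the rule, 9 of 16 pairs with 5′ ends 810 to 987 bp apart held a summit, and so did 10 of 20 pairs just outside it, 1007 to 1199 bp apart. The 37 members whose summit lay 404 to 494 bp outside the 5′ ends had a median fold enrichment of 4.51, and the 41 summits just beyond, at 502 to 600 bp, had a median of 4.15.

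Members were as strongly enriched as peaks at other promoters. Fold enrichment, the ratio of the scaled Myb pileup plus 1 to the local IgG pileup plus 1, ranged from 2.09 to 22.7, with a median of 4.87 (4.67 to 5.07) and quartiles of 3.84 and 6.41. Single promoters, defined as the 4909 other summits within 500 bp of a protein-coding 5′ end, had a median of 4.82 (4.76 to 4.90). The added 1 lowers every fold, most where the background is low. The difference was 0.0443 (-0.165 to 0.254), and against the 3200 CpG-rich single promoters both medians were 4.87. The interval of the difference combines the widths of the 2 median intervals as the root of their summed squares. Peaks elsewhere had a median of 4.47. A -log10 q-value of at least 5 was reached by 286 members, or 54.6% (50.2% to 58.9%), by 52.1% of single promoters and by 43.1% of all peaks.

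The upper tail of the members was somewhat heavier. A fold enrichment of 10 or more was found in 35 members, or 6.68% (4.70% to 9.17%), against 4.34% (3.79% to 4.95%) of single promoters. The 2 intervals overlap. Members were also wider, with a median of 774 bp (708 to 831 bp) against 699 bp (685 to 713 bp), and 43 of them, or 8.21% (6.0% to 10.9%), exceeded 2 kb, against 5.13% (4.53% to 5.79%) of single promoters.

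**Figure D2:**
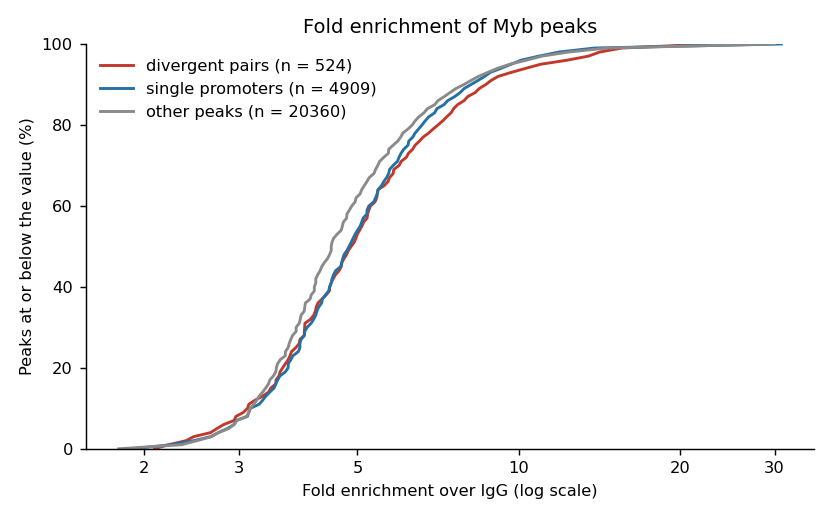
Cumulative share of peaks (percent, vertical axis) at or below each fold enrichment over IgG (log scale, horizontal axis) for members at divergent pairs, single promoters and all other peaks. The curve of the divergent pairs follows that of the single promoters up to the medians of 4.87 and 4.82, and around the median both lie to the right of the other peaks, whose median was 4.47.

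Few reads stood behind a typical member. The reads at a member's summit, worked out from its fold enrichment and its p-value, ranged from 9 to 109 around a median of 22 (21 to 23), against 21 at single promoters and 18 in the whole list. Fewer than 20 reads covered 205 members, or 39.1% (34.9% to 43.4%), against 43.5% of single promoters and 56.1% of all peaks. The 30 members with a q-value above 0.05, 5.73% of them against 7.24% of all peaks, include the 5 weakest calls. Such rows are in the list although peak calling was described with that limit. These were the peaks of Tatdn3/Nsl1 and of Cib1/Gdpgp1, each with 15 reads and a fold enrichment of 2.09, of Cnppd1/Retreg2 and of Fig4/Ak9, each with 18 reads and 2.12, and of Sox6/1110004F10Rik, with 9 reads and 2.64. Their backgrounds, in units of scaled pileup, ran from 2 to 6, above the lowest background common in the list, 1.46. Nsl1 encodes a kinetochore protein, Sox6 a transcription factor of red cell development and Fig4 a phosphoinositide phosphatase.

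The strongest member lay between Mmachc and Ccdc163, whose 5′ ends are 103 bp apart. Its peak, chr4:116707743-116708927, had 80 reads (63.4 to 99.6) and a fold enrichment of 22.7, and it ranked 15 in the whole list. Next came Ddx5, an RNA helicase of splicing and transcription, with the centrosomal gene Cep95, 67 bp apart. That peak, chr11:106783501-106789898, had 73 reads and a fold enrichment of 22.0, with its summit in the UTR of Ddx5, and was 6398 bp wide, so that it covered far more than the promoter. The next peak, with 109 reads and a fold enrichment of 19.7, belonged to Brd8, which encodes a subunit of the NuA4 histone acetyltransferase complex, and Kif20a, a kinesin of cell division, whose starts are 12 bp apart.

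The next pairs without histone genes were of varied function. Hnrnpa2b1, an RNA-binding protein of splicing, and Cbx3, which encodes the heterochromatin protein HP1 gamma, form a well-known divergent promoter that is used to keep transgenes active. Their peak, chr6:51465757-51472292, had 80 reads and a fold enrichment of 15.6, and its summit lay 22 bp from the middle of the 466 bp between the starts. It was the widest member, at 6536 bp. Tecr, an enzyme of very long chain fatty acid synthesis, and Dnajb1, an Hsp40 chaperone, shared a peak at chr8:83607338-83608735 with 63 reads and a fold enrichment of 15.4. Znrd1, a subunit of RNA polymerase I, and Znrd1as had 80 reads and 14.5, and Vta1, a protein of endosome sorting, and the receptor gene Nmbr had 44 reads and 14.2.

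The remaining 3 of the 10 strongest were histone pairs on chromosome 13. Hist1h2ak/Hist1h2bn had 60 reads and a fold enrichment of 19.1, Hist1h2bf/Hist1h2ad 56 reads and 17.9, and Hist1h2an/Hist1h2bp 45 reads and 14.5. All of these genes encode H2A or H2B proteins, which are made in S phase. The background was 1.46 in scaled pileup at each. The summits lay between the starts, 108 bp from Hist1h2bn, 38 bp from Hist1h2ad and 119 bp from Hist1h2bp.

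Summits sat close to the starts rather than evenly over the windows. The median distance to the nearer 5′ end was 129 bp (119 to 136 bp), against 171 bp (165 to 177 bp) at single promoters. A pair offers 2 starts to be near, although some single promoters also have a second one, since pairs with overlapping 5′ ends are counted among them. Both 5′ ends lay within 500 bp of 429 summits, or 81.9%, which mainly reflects how close the starts are. The peak covered both 5′ ends in 335 members, or 63.9% (59.7% to 68.0%), 1 of them in 94 and neither in 95. Members that covered both had a median fold enrichment of 5.37 (5.04 to 5.64) and a median width of 942 bp, against 4.18 (3.99 to 4.46) and 530 bp for the others.

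With starts over 200 and up to 500 bp apart, summits fell between them more often than the length of that stretch alone would give. Over all members 110 summits, or 21% (17.6% to 24.7%), lay between the 5′ ends, and 16.3% of the bases in the members' windows did. With starts up to 100 bp apart the summits between them were 4.67% (2.26% to 8.43%) against 5.24% of bases. For over 100 to 200 bp the shares were 16.2% (10.6% to 23.3%) against 12.6%, so the interval included the share of bases. For over 200 to 300 bp the shares were 41.3% (29.0% to 54.4%) against 19.9%. They were 43.1% (30.2% to 56.8%) against 27% for over 300 to 500 bp and 55.3% (40.1% to 69.8%) against 41.1% for over 500 to 1000 bp, where the lower bound no longer cleared the share of bases. Outside the starts, 206 summits lay on the side of the minus-strand gene and 208 on that of the plus-strand gene.

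**Figure D3:**
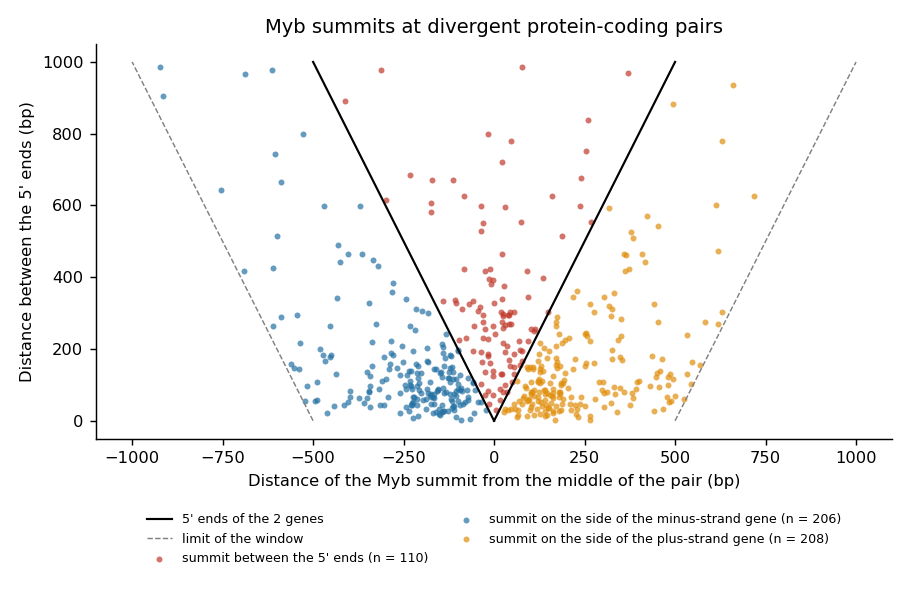
Position of each member summit as distance in bp from the middle of its pair (horizontal axis) and the distance in bp between the pair's 5′ ends (vertical axis). Solid lines are the 5′ ends and dashed lines the limits of the windows, and colors separate 110 summits between the starts from 206 and 208 on either outer side, where they crowd next to the starts.

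The annotation under a summit followed from this. It was a UTR for 237 members, or 45.2%, sequence outside any gene for 108, an intron for 86, a coding exon for 57 and an exon of a noncoding transcript or of unassigned coding status for 36. Members with the summit outside any gene had a median fold enrichment of 5.26 (4.91 to 6.01), against 4.47 (4.15 to 4.80) in coding exons and 4.59 (3.98 to 5.04) in introns.

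A second peak was found in 37 windows. In 19 of them 1 summit lay on each outer side, in 15 one lay between the starts and the other outside, and in 3 both lay on 1 side. The summits were 176 to 1001 bp apart, with a median of 510 bp. The 2 examples named here were chosen after their values were seen. At Cep76/Psmg2, where Psmg2 encodes a proteasome assembly chaperone, the peak between the starts had 48 reads and a fold enrichment of 13.8 and the other, in an intron of Cep76, 25 reads and 7.35. At Pecam1/Milr1, a pair of cell surface receptors of blood cells, the values were 49 reads and 13.1 between the starts and 19 reads and 5.88 in the UTR of Pecam1. The window of Zbtb26/Rabgap1 held 3 summits, since it shares the start of Rabgap1 with Zbtb6/Rabgap1, to which 2 of them were assigned.

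The Myb motif was present at a minority of member summits and was denser there than nearby. Within 50 bp of the summit it occurred in 83 members, or 15.8% (12.8% to 19.3%), against 16.7% of all peaks. In windows of the same length 500 bp to either side it occurred in 9.26%, which gave a summit to flank ratio of 1.71. Single promoters had the motif at 11.7% (10.8% to 12.6%) of summits and a ratio of 1.18, and CpG-rich single promoters had it at 9.47% (8.48% to 10.5%), with a ratio of 0.960. Members that were themselves CpG-rich had it at 14.4% (10.9% to 18.4%), a range that starts above that of the CpG-rich single promoters. The motif occurred within 50 bp of 10.2% of all protein-coding 5′ ends. It was at 8.15% (5.91% to 10.9%) of the middles of pairs with a peak and 9.56% (6.22% to 13.9%) of those without. At the middle, the Myb motif thus did not set pairs with a peak apart.

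The excess depended on how the motif and its background were set. It fell with distance, from 15.8% at the summit to 12.4% at 100 bp and 7.63% (6.10% to 9.41%) at 300 bp, and rose again to 12.5% at 900 bp. With flanks 1000 bp away the ratio was 1.37, and with the shorter AACNG, which 43.1% of summits held, it was 1.01. Among the 4 words, CAACGG occurred at 28 summits with a ratio of 2.95 and TAACGG at 17 with a ratio of 2.12, whereas CAACTG, at 23 summits, and TAACTG, at 21, had ratios of 1.24 and 1.45. The words with a CpG are those with the higher ratios.

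**Figure D4:**
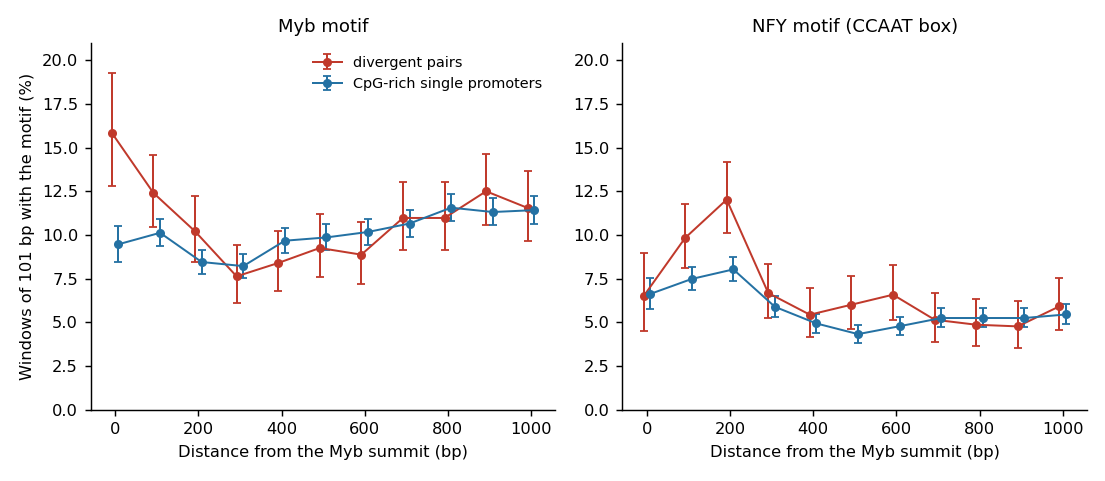
Share of windows reaching 50 bp to either side (percent, vertical axis) that hold the Myb motif (left) or the CCAAT motif of NFY (right) by distance from the Myb summit in bp (horizontal axis), with both sides pooled and exact 95% binomial intervals. At divergent pairs (red) the Myb motif was most frequent at the summit, at 15.8%, and the CCAAT motif 200 bp from it, at 12.0%, and CpG-rich single promoters are shown in blue.

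The share of summits with the motif was highest in the strongest group, with overlapping intervals. Split by fold enrichment into 4 groups of 130 to 132 peaks, the share with a Myb motif was 13.7% (8.35% to 20.8%), 12.1%, 14.6% and 22.9% (16.0% to 31.1%) from the weakest to the strongest. In their flanks it was 6.11%, 10.2%, 9.62% and 11.1%. The strongest group also had the most reads, a median of 35 against 17 in the weakest. Summits between the starts had the motif in 20.9% (13.7% to 29.7%) and those outside in 14.5% (11.2% to 18.3%). In coding exons it was at 2 of 57 summits, or 3.51% (0.428% to 12.1%). More than 1 motif was found at 8 summits, among them Mmachc/Ccdc163 and Cenpp/Nol8. The largest number was 3, at Rita1/Ddx54, where Ddx54 encodes an RNA helicase of the nucleolus, with 33 reads and a fold enrichment of 4.40.

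Other promoter motifs differed in where they lay. The ETS word CCGGAAG was at 7.06% (5.02% to 9.60%) of member summits and 1.43% of flanks, and at 14.3% (11.4% to 17.7%) of the middles of pairs with a peak and 13.5% (9.57% to 18.4%) of those without. The YY1 word ATGGCG was at 8.40% (6.17% to 11.1%) of member summits and 3.34% of their flanks. CpG-rich single promoters were alike, with the ETS word at 6.22% of summits and 1.55% of flanks and the YY1 word at 8.28% and 2.88%. The CCAAT motif was no denser at the member summits, at 6.49% (4.54% to 8.95%), than in their flanks, at 6.01%. At CpG-rich single promoters it was at 6.6% of summits and 4.3% of flanks. In pairs, the CCAAT motif was at 22.9% (19.3% to 26.8%) of the middles of pairs with a peak and 24.7% (19.5% to 30.5%) of those without. The SP and KLF word GGGCGG was at 42.9% and 43.4% of these middles and the NRF1 palindrome at 9.15% and 9.16%, so none of these 3 motifs set pairs with a Myb peak apart from pairs without. The CREB word TGACGT was at 10.7% (8.17% to 13.8%) of the middles with a peak and 5.98% (3.38% to 9.67%) of those without. These intervals overlap, and several motifs were compared. At the summits the CREB word was at 4.01% (2.50% to 6.06%) of members and 3.25% (2.66% to 3.92%) of CpG-rich single promoters.

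The RUNX and GATA motifs of blood factors were about as rare at the members as at other promoters. The RUNX word TGTGGT occurred at 4.39% (2.80% to 6.51%) of summits, against 4.79% at single promoters, 3.69% at CpG-rich single promoters and 11.1% (10.7% to 11.6%) at peaks away from promoters. The GATA words AGATAA and TGATAA occurred at 2.86% (1.61% to 4.68%) of member summits and 6.01% of their flanks. They occurred at 4.20% of single promoters and 1.78% of CpG-rich ones, against 16.4% (15.9% to 17.0%) of summits away from promoters. These words contain few G and C, and the median GC content around the summit was 60.1% at members and 45.9% at peaks away from promoters. The part of base composition in this contrast was not tested.

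The gene lists gave the members' functions, read against the 66.7% of all pairs. All 22 pairs with a splicing gene held a summit (84.6% to 100%). The median fold enrichment of their 24 peaks was 5.44 (4.72 to 7.28). Beside Ddx5 and Hnrnpa2b1, the highest was at Srsf7, which encodes a serine and arginine rich splicing factor, paired with Ttc39d, with 72 reads and 11.3. The lowest were at Lsm7 and Srsf11, with 2.94 and 2.97. The 22 pairs with a gene of tRNA or rRNA processing also all held a summit (84.6% to 100%), although 2 of these are the same genes, Chtf8 and Utp4, annotated with 2 Chtf8 records. The strongest were Cenpp/Nol8, with 71 reads and 13.9, Exosc8/Alg5, where Exosc8 is part of the RNA exosome, with 25 reads and 7.90, and Pfdn6/Wdr46, with 28 reads and 7.51.

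Transcription and translation machinery followed. RNA polymerase subunits with Polr symbols, a list that leaves out Znrd1, held a summit in 8 of 9 pairs, led by Ptcd3/Polr1a with 34 reads and 9.05, while the next, Lnx2/Polr1d and Polr3c/Rnf115, reached 4.45 and 4.44. Mediator and general transcription factors did so in 13 of 16, or 81.2% (54.4% to 96.0%). The list was led by the TFIID subunit gene Taf9, paired with the checkpoint gene Rad17, with 54 reads and a fold enrichment of 13.5. This was the highest of any pair with starts over 500 bp apart, and the summit between the starts lay in a UTR of another gene, Ak6. Next were Taf5l/Urb2, with 65 reads and 10.2, and Hps5/Gtf2h1, with 25 reads and 7.97. Translation factors did so in 7 of 7 pairs, led by Eef1d/Tigd5 with 24 reads and 6.92, Txndc9/Eif5b with 28 and 5.64 and Atp6v1d/Eif2s1 with 27 and 5.05. Aminoacyl-tRNA synthetases did so in 4 of 5, led by S100pbp/Yars with 29 reads and 7.55. Cytosolic ribosomal proteins did so in 7 of 9, led by Zwilch/Rpl4 with 38 reads and 8.55, Iqcg/Rpl35a with 30 and 7.34 and Rps27/Rab13 with 30 and 4.82. Except for the splicing and the tRNA and rRNA lists, the interval of every list printed here included the share of all pairs.

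Mitochondrial lists were near the share of all pairs. Respiratory chain genes held a summit in 19 of 24 pairs, or 79.2% (57.8% to 92.9%). The strongest were Uqcrq/Gdf9 with 43 reads and 9.14, Fam126b/Ndufb3 with 33 reads and 8.39, and Uqcrh/Lrrc41 with 32 reads and 7.67, where Uqcrq and Uqcrh belong to complex III and Ndufb3 to complex I. Mitochondrial ribosomal proteins did so in 13 of 18, or 72.2% (46.5% to 90.3%), with peaks of low to middling strength, from 2.66 at Ptcd2/Mrps27 to 6.87 at Mrpl41/Pnpla7, and a Myb motif at 0 of the 13 summits, against 15.8% of all members. Mrpl40/Hira and Ska3/Mrpl57 followed Mrpl41/Pnpla7 with 5.44 and 5.10. The motif was also at 0 of 7 peaks of cytosolic ribosomal proteins, 0 of 7 of the proteasome and 1 of 24 of splicing. Other lists had more, with 3 of 7 for translation factors, 2 of 8 for RNA polymerase subunits and 1 of 4 for aminoacyl-tRNA synthetases. It was at 5 of 22 for DNA repair, 4 of 21 for tRNA and rRNA processing and 2 of 13 for Mediator and general transcription factors. Respiratory chain peaks had it at 3 of 22 and DNA replication peaks at 1 of 8. These counts are small. Proteasome genes held a summit in 6 of 8 pairs, with Dnajc2/Psmc2, at 26 reads and 8.53, second to Cep76/Psmg2. Psmb1/Tbp, which joins a proteasome subunit to the TATA-binding protein, came after them at 38 reads and 6.05.

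The intervals of the genome maintenance lists overlapped, and both included the share of all pairs. DNA replication genes held a summit in 9 of 12 pairs, or 75% (42.8% to 94.5%), all of modest strength, with Dbf4/Slc25a40 highest at 27 reads and 5.05. Dbf4 encodes the activator of the Cdc7 kinase. Wdhd1/Socs4 followed with 20 reads and 4.91 and Prpf38a/Orc1 with 22 reads and 4.81. Rpa3 was counted with both Umad1 and Gm45062, at the same peak. DNA repair genes held a summit in 19 of 34 pairs, or 55.9% (37.9% to 72.8%). The strongest was Polh, a translesion polymerase, with the exportin gene Xpo5, at 48 reads and 12.3, and Dclre1b/Ap4b1 followed with 38 reads and 9.22. Dclre1b was counted with both Ap4b1 and Gm43064, at the same peak, and Pms1 with both Ormdl1 and Gm28778. The intervals treat such pairs as separate. The 15 repair pairs without a summit included those of Pms1, Pms2, Mutyh, Fancd2, Lig4, Xrcc1, Wrn and Rad51c, which were picked for naming after their values were seen. Their distances varied, and the nearest summit was 873 bp from the middle of Rad51c/Tex14 and 19418 bp from that of Toe1/Mutyh.

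Peaks at replication-dependent histone pairs were strong. A summit was held by 7 of 14 pairs, or 50% (23% to 77%), and the fold enrichment of the 8 peaks ran from 5.81 to 19.1, with a median of 11.6 (5.81 to 19.1). None of the 8 summits had a Myb motif within 50 bp, against 15.8% of all members. A CCAAT motif was at 4 of them, against 6.49% of all members. Both counts rest on 8 peaks of closely related genes, which are not independent. In 5 of them the summit lay between the starts, and in 3, at Hist1h2ah/Hist1h2bk, Hist1h2ag/Hist1h2bj and Bola1/Hist2h2ab, it lay 480 to 492 bp past the start of the plus-strand gene and outside any gene. Histone genes are near copies of each other and the authors kept reads of high mapping quality, and the part of mapping in the calls at these pairs was not tested. Of the other 7 pairs, 4 had a summit outside the window but within 1000 bp of the middle, at 642 bp for Hist2h2ac/Hist2h2be, 682 bp for Hist1h2bl/Hist1h2ai, 879 bp for Hist1h2bh/Hist1h3f and 912 bp for Hist1h2ae/Hist1h2bg. The summit near Hist2h2ac/Hist2h2be is that of the Bola1/Hist2h2ab member.

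Regulators of blood cell identity were followed as a list, and 1487 of 21938 protein-coding genes belonged to a divergent pair. Of its 94 genes, 1 belonged to a divergent pair, Trp53 with Wrap53, whose starts are 104 bp apart. That pair held no summit in its window, and the nearest lay 904 bp from its middle. A list of divergent promoters known from textbooks was also followed. Of these, 5 met the rule and 4 held a summit. Atm, the kinase that signals DNA breaks, and Npat, a coactivator of histone genes, had 23 reads and a fold enrichment of 5.95 between the starts. Mcm4, a helicase subunit, and Prkdc, a kinase of DNA end joining, had 27 reads and 4.36. Brca1, of recombination repair, and Nbr1, an autophagy receptor, had 21 reads and 4.29, with a Myb motif at the summit. Mrps12 and Sars2, both of mitochondrial translation, had 22 reads and 3.59, and Serpini1/Pdcd10, with starts 691 bp apart, had none. Other textbook pairs have gene records that overlap at their 5′ ends and so fell outside the rule. Of these, Mfsd11/Srsf2, with the splicing factor gene Srsf2, had the highest fold enrichment, 17.7 with 80 reads. Ppat/Paics, of purine synthesis, reached 6.79 and the mitochondrial chaperone pair Hspd1/Hspe1 6.06. Tap1/Psmb9, Sirt3/Psmd13 and Surf1/Surf2 had 4.15, 3.99 and 3.89. Col4a1/Col4a2, which encode collagens of basement membranes, had no summit, nor did Ung/Alkbh2, whose starts are 2168 bp apart.

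**Figure D5:**
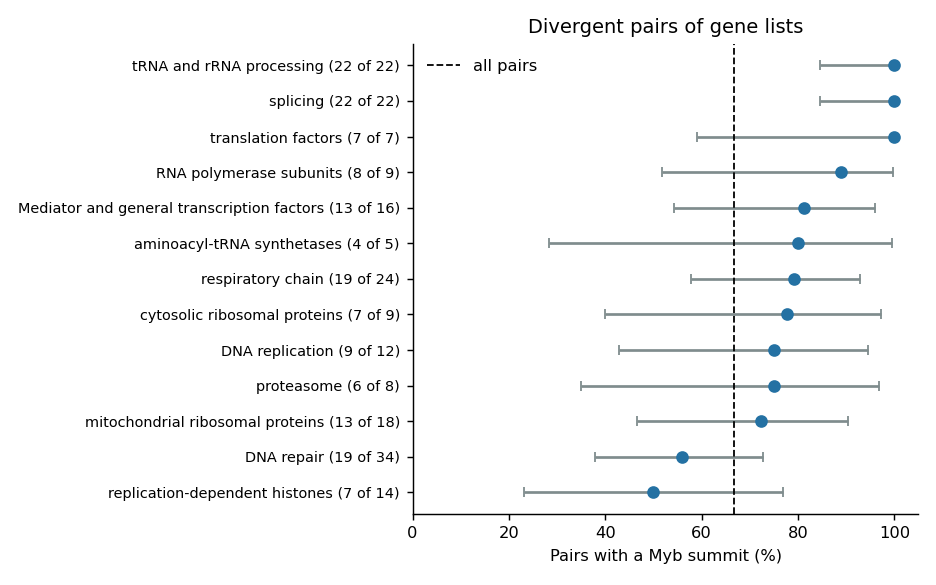
Share of divergent pairs with a Myb summit (percent, horizontal axis) for 13 gene lists with at least 4 pairs, with exact 95% binomial intervals and the number of pairs in parentheses. The dashed line is the share of all pairs, 66.7%, and the intervals of splicing and of tRNA and rRNA processing, which start at 84.6%, lie above it.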

How the data were processed

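The labels' processing notes name cutadapt 1.15, BWA 0.7.13, Picard and MACS2 2.1.1.20160309. The authors trimmed the single-end reads, aligned them to mm10, discarded duplicates, poorly mapped reads and blacklisted regions, and kept narrow peaks shared by pseudo-replicates, which are random splits of the 1 library, with IgG as the control. The deposited Myb list gives for each peak the fold enrichment, a ratio, the −log10 p-value and −log10 q-value, a score that is 10 times the −log10 p-value, and the summit. The IgG library entered through those values and was not analysed here by itself. Peaks came from 1 library, so no calls could be compared between replicates.

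Summits were joined to GENCODE vM21 gene records and sequence was read from GRCm38, which mm10 corresponds to. Of the pairs, 1 mitochondrial pair was left out. Whole reads were recovered from fold enrichment and p-value by a Poisson model with 1 pileup scale, 0.769456, and 100% of rows gave a whole number within 0.001 of the −log10 p-value. The lowest common background was 1.46, and 0.0892% of rows allowed more than 1 read number. Motifs were counted on both strands within 50 bp of a position. Python 3.11.15 was used with NumPy 2.4.6, SciPy 1.17.1, pandas 2.3.3 and matplotlib 3.10.9, and the procedures were tested on simulated data.

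Members and gene lists were chosen with earlier results of these data known. Named were the 10 highest fold enrichments, the 5 lowest −log10 q-values, pairs with 3 or more summits, summits with 3 or more Myb motifs, the highest peak of each distance class, the textbook pairs and the 3 highest of each list. Exceptions are stated where they occur. Some pairs that this rule names are not reported here.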

Additional observations from a re-analysis of the deposited data

How the results depend on the processing

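No paired analysis was possible because there was 1 library per antibody, which also left no replicate to leave out. Of 70 values under other settings, 48 stayed within the interval of the reported value, or for counts of peaks within 1.5 times it, 22 moved further and none reversed. When peaks had to reach 2 in −log10 q-value, summits were held by 59.2% of pairs, 55.1% of genes in pairs and 21.9% of other genes, with a median fold enrichment of 5.12. At 5 or more, 286 members remained, the shares were 37.7%, 35.2% and 13.1%, the median was 6.21 and 25.5% of summits lay between the starts. Limiting summits to 250 bp outside the starts gave 56.1% of pairs. Within 250 bp of a 5′ end, 46.5% of genes in pairs and 17.3% of others had a summit, and within 1000 bp, 71.0% and 28.9%. The Myb motif was at 7.82% of summits within 25 bp, at 26.3% within 100 bp and at 43.1% as AACNG, whose ratio was 1.01, and flanks 1000 bp away gave 1.37. Chosen after seeing the data, a q-value of at most 0.05 gave 62.9% of pairs, and adding pairs with overlapping 5′ ends gave 848 peaks. Genes in pairs stayed above other genes with −log10 q-values of 2 and 5 and within 250 and 1000 bp of the 5′ end, the settings in which both were computed. A median of 22 reads a summit limits what a missing call can show.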
